A study of Mus musculus with 16 samples.

Results

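Transcript levels of 10 macrophage and leukocyte genes were examined in mouse liver and quadriceps muscle. The genes were Lyz2, Lyz1, Mpeg1, Cd68, Adgre1, C1qa, C1qb, C1qc, Retnla and Ptprc, taken by symbol from a table of read counts for 13701 genes. They were chosen by their log2 fold changes between Yap1S5A-labelled and GFP-labelled libraries, as general macrophage genes raised in both tissues, so changes with the vector are given here as a description, without p-values. For these 10 genes tests are kept for liver against quadriceps and for ratios between the genes, contrasts that the choice did not name but that share its libraries. Other genes are also tested between labels.

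Macrophages are phagocytes that live in every tissue, and most liver macrophages are Kupffer cells lining the sinusoids, while muscle macrophages lie between and around the fibres. They carry lysozyme, which cuts bacterial cell walls, the pore-forming protein perforin-2 (Mpeg1), lysosomal glycoproteins such as CD68, and surface receptors such as the one encoded by Adgre1. Tissue macrophages are also a main source of C1q, the recognition unit of the classical complement pathway, which is assembled from the chains encoded by C1qa, C1qb and C1qc.

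Total RNA was sequenced from frozen bulk tissue of male C57BL6/J mice, 12 to 14 weeks old, on day 7 after infection with AAV, an adeno-associated virus. The genotype field reads AAV-DJ8-TGB-Yap1S5A for 4 livers and 4 quadriceps and AAV-DJ8-TGB-EGFP for the other 4 livers and 4 quadriceps, and the labels do not spell out TGB. Yap1S5A is a form of the transcriptional coactivator Yap1 in which serines are changed to alanines so that it escapes inhibition by Hippo signalling, and EGFP is a green fluorescent protein used as the control cargo. By the series design the expression is hepatic, so all 4 groups share the AAV and the quadriceps come from mice with a liver-directed vector. The treatment text speaks of sham operations and partial hepatectomy, in conflict with the titles, and grouping here is by title. Nothing in the labels states that replicates came from separate mice, so p-values measure the spread between these samples, which may be technical. Liver and quadriceps libraries with the same replicate number carry sample IDs with a shared number, and whether they came from the same mouse is not stated.

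Libraries held 13817718 to 19215472 counts. Levels are given in CPM, read counts scaled to library size by the trimmed mean of M-values (TMM) over all 16 libraries. Yap1 averaged 46.7 ± 3.64 CPM in the Yap1S5A-labelled and 68.9 ± 5.20 CPM in the GFP-labelled livers (SD, n = 4 each), which goes against the overexpression label, so groups are called by their labels throughout. Its counts may or may not include transcripts of the vector. The liver and muscle labels fitted their defining transcripts. Alb, the albumin gene, stood in quadriceps at 0.0433% of its liver level under the Yap1S5A label and at 0.0188% under the GFP label, and the muscle creatine kinase gene Ckm stood in livers at 0.0215% and 0.0587% of its quadriceps level. Rn45s, the ribosomal RNA precursor, ranged from 6978 to 103946 CPM among GFP-labelled livers. In bulk tissue, more macrophages and more RNA per macrophage cannot be told apart.

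The description as raised in both tissues held for 9 of the 10 genes by non-overlap of the groups. Of 12818 genes in liver, 30.3% had all 4 Yap1S5A-labelled libraries above all 4 GFP-labelled ones and 27.3% the reverse, and of 12121 genes in quadriceps 7% and 8.67%. The exception was Retnla, which was almost absent from liver. Lyz1 was also near the limit of detection in liver. The vector contrasts chose the genes, so nothing is read from these counts.

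**Figure D1:**
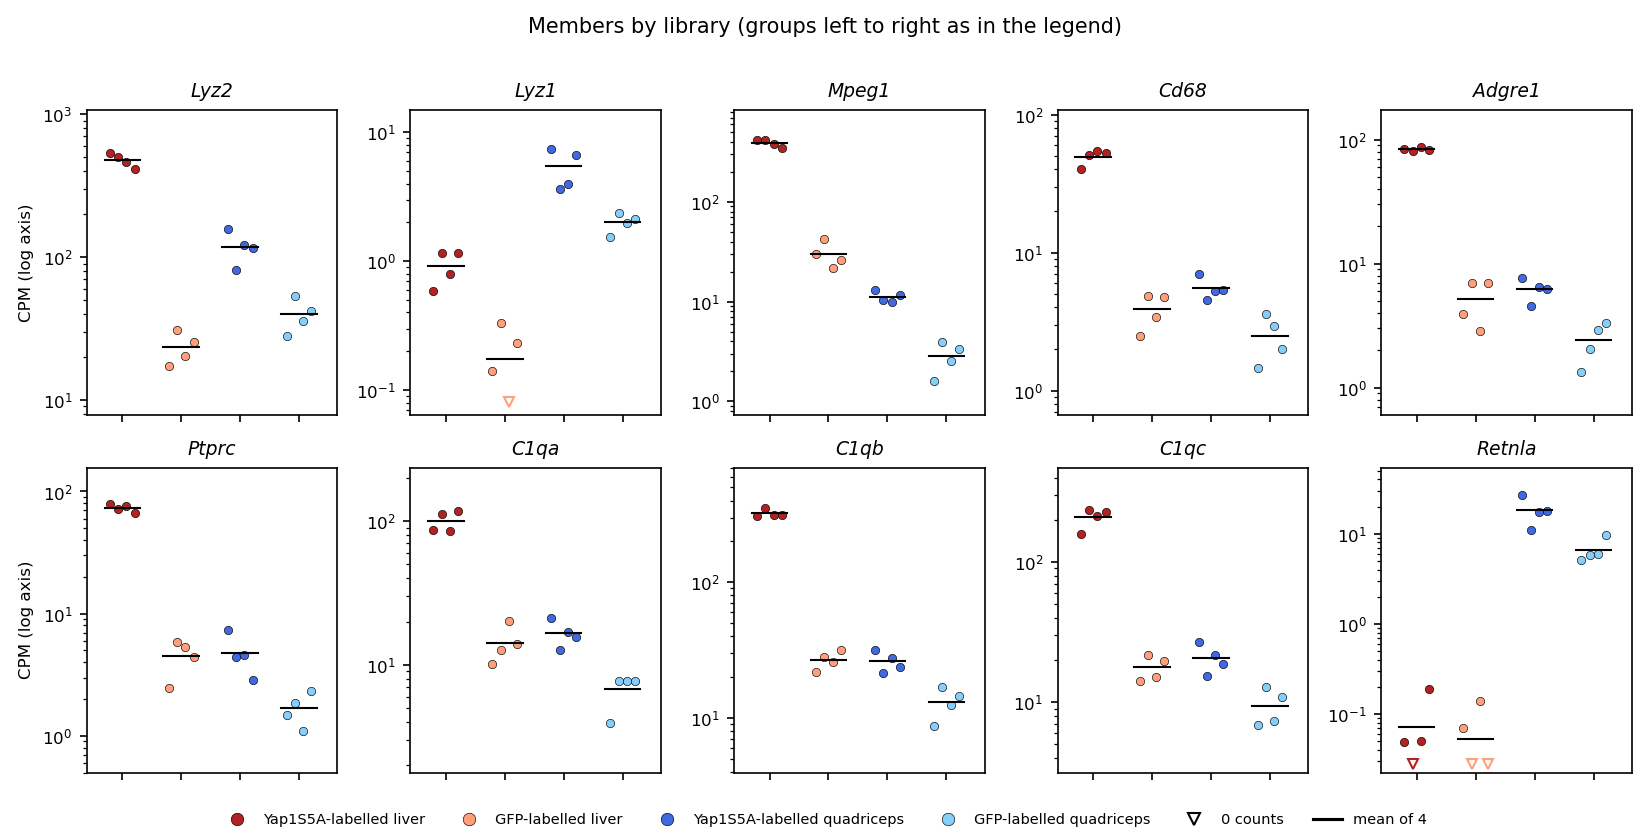
Levels of the 10 genes in each of the 16 libraries, in CPM on log axes that differ between panels, with a bar for the mean of 4 and open triangles for libraries with 0 counts. The 4 Yap1S5A-labelled livers lie above the 4 GFP-labelled livers in every panel but that of Retnla, which is seen only at the bottom of its axis in liver.

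The lysozyme genes Lyz2 and Lyz1 lie head to tail on the minus strand of chromosome 10, at chr10:117277541-117282272 and chr10:117287795-117292868 in build mm10, 5522 bases apart and with 4 exon segments each. Lyz2 encodes the lysozyme of macrophages and other myeloid cells, and Lyz1 the form best known from Paneth cells of the small intestine. Lyz2 stood at 537, 499, 465 and 415 CPM in Yap1S5A-labelled livers, against 17.3, 31.1, 20.4 and 25.6 CPM in GFP-labelled livers. In quadriceps it stood at 156, 81.6, 121 and 115 CPM under the Yap1S5A label, against 28.03, 53.2, 35.8 and 41.8 CPM under the GFP label. No library of one vector reached the range of the other in either tissue. The log2 fold change of Yap1S5A-labelled over GFP-labelled libraries was 4.36 ± 0.20 in liver and 1.59 ± 0.24 in quadriceps (edgeR estimate ± SE). The SE of every fold change was taken as its absolute log2 value over the square root of the edgeR F statistic. For the vector changes it is given as a description and is not read as a test.

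Lyz1 had 12, 24, 16 and 24 reads in the Yap1S5A-labelled livers and 2, 5, 0 and 3 reads in the GFP-labelled livers. That is 76 against 10 reads, a ratio of 5.26 after scaling, given as a description because this contrast chose the gene. Lyz1 passed the filter on low counts in liver only through the Yap1S5A-labelled livers. In quadriceps Lyz1 stood at 7.48, 3.66, 3.95 and 6.70 CPM under the Yap1S5A label, against 1.54, 2.36, 1.98 and 2.13 CPM under the GFP label. The groups did not overlap in either tissue. The log2 fold change was 2.36 ± 0.57 in liver and 1.46 ± 0.27 in quadriceps. The Lyz1 and Lyz2 transcripts, 1263 and 1316 bases long in GENCODE, were 91.95% identical over 1317 aligned positions. Of the 50-base windows of Lyz1, 16.1% also occurred in Lyz2, so reads may have been assigned to the wrong copy, and how the counting treated such reads is not given in the sources used here.

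The ratio of Lyz1 to Lyz2 separated the tissues. Per kilobase of exon, it was 0.000956, 0.00199, 0.00147 and 0.00236 in Yap1S5A-labelled livers, against 0.0402, 0.0378, 0.0276 and 0.0487 in Yap1S5A-labelled quadriceps. It was 0.00851, 0.00971, 0.00142 and 0.00877 in GFP-labelled livers, against 0.0468, 0.0375, 0.0469 and 0.0432 in GFP-labelled quadriceps. Every liver was below every quadriceps. The log2 ratio differed between liver and quadriceps by -4.56 under the Yap1S5A label (two-sided exact permutation p = 0.0286, adjusted p = 0.0429). That p is the smallest that 4 against 4 libraries allow, and the Benjamini-Hochberg adjustment ran over 6 tests of ratios. Under the GFP label the difference was -2.94, given without a p because the ratio in those livers rests on 10 Lyz1 reads. The value of 0.00142 comes from a liver with 0 Lyz1 reads, through the 0.5 added to each count.

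The sequences before the starts of Lyz2 and Lyz1 are shown because the copies share much of them while their levels differ widely. They are the 250 bases before the RefSeq start in GRCm38.p6, on the minus strand, at chr10:117282273-117282522 for Lyz2 and chr10:117292869-117293118 for Lyz1. Capitals mark ACTTCCT, the complement of AGGAAGT, a motif bound by ETS factors such as PU.1.
Lyz2: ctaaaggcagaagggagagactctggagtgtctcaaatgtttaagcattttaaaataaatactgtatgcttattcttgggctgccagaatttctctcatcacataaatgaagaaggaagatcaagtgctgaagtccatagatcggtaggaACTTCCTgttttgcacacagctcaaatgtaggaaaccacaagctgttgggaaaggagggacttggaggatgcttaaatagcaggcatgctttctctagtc
Lyz1: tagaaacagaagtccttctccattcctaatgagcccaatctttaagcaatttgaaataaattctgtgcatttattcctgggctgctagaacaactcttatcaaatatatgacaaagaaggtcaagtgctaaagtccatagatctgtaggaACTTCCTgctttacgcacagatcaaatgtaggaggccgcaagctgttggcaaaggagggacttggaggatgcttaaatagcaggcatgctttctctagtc
The stretches were 79.4% identical when aligned, and the motif lay 100 bases before the start in both.

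The C1q chain genes form a cluster on the minus strand of chromosome 4, with C1qb at chr4:136880145-136886177, C1qc at chr4:136889802-136892914 and C1qa at chr4:136895916-136898844 in mm10, each with 3 exon segments. C1qb and C1qc are 3624 bases apart, and C1qc and C1qa 3001 bases. C1qb stood at 310.4, 350.3, 312 and 315 CPM in Yap1S5A-labelled livers, against 21.8, 28.3, 25.7 and 31.8 CPM in GFP-labelled livers. C1qa stood at 85.9, 112, 85.2 and 117 CPM in Yap1S5A-labelled livers, against 10.1, 12.7, 20.1 and 13.9 CPM in GFP-labelled livers. C1qc stood at 159, 236, 214 and 229 CPM in Yap1S5A-labelled livers, against 14.2, 21.9, 15.1 and 19.8 CPM in GFP-labelled livers. All 3 chains were separated by label without overlap, and C1qa had the smallest log2 fold change of them, 2.83 ± 0.20, beside 3.60 ± 0.15 for C1qb and 3.57 ± 0.18 for C1qc.

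In quadriceps C1qa stood at 21.2, 12.7, 16.9 and 15.5 CPM under the Yap1S5A label, against 3.91, 7.72, 7.68 and 7.73 CPM under the GFP label. C1qb stood at 31.5, 21.6, 27.5 and 23.6 CPM under the Yap1S5A label, against 8.67, 17.03, 12.4 and 14.4 CPM under the GFP label. C1qc stood at 26.8, 15.5, 21.8 and 18.7 CPM under the Yap1S5A label, against 6.92, 12.8, 7.39 and 10.9 CPM under the GFP label. Here too no chain overlapped between labels, and the log2 fold changes were 1.30 ± 0.22 for C1qa, 0.996 ± 0.187 for C1qb and 1.13 ± 0.22 for C1qc.

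Because one C1q molecule holds the 3 chains in equal number, their proportions were set side by side per kilobase of exon. C1qb over C1qa was 3.68, 3.18, 3.73 and 2.74 in Yap1S5A-labelled livers, against 1.51, 1.73, 1.66 and 1.55 in Yap1S5A-labelled quadriceps. It was 2.19, 2.26, 1.30 and 2.33 in GFP-labelled livers, against 2.25, 2.24, 1.65 and 1.89 in GFP-labelled quadriceps. The Yap1S5A-labelled livers stood above all other libraries, and the GFP-labelled tissues overlapped. Under the Yap1S5A label the log2 ratio was 1.04 higher in liver (exact permutation p = 0.0286, adjusted p = 0.0429), and under the GFP label the difference was -0.02 (exact permutation p = 0.914, adjusted p = 0.914).

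C1qc over C1qa averaged 2.16 ± 0.30 in Yap1S5A-labelled livers and 1.28 ± 0.0414 in Yap1S5A-labelled quadriceps (SD, n = 4 each). It averaged 1.36 ± 0.417 in GFP-labelled livers and 1.48 ± 0.364 in GFP-labelled quadriceps. The log2 ratio was 0.75 higher in liver under the Yap1S5A label (exact permutation p = 0.0286, adjusted p = 0.0429) and differed by -0.15 under the GFP label (exact permutation p = 0.629, adjusted p = 0.754). These 4 C1q tests and the 2 Lyz1 tests make the 6 that were adjusted together, with no p given for Lyz1 under the GFP label. With any 1 library left out the smallest adjusted p was 0.0857, since 3 against 4 libraries cannot reach the threshold.

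The 250 bases before the starts of C1qb and C1qc, on the minus strand of GRCm38.p6 at chr4:136886201-136886450 and chr4:136892915-136893164, are shown because these neighbours had like fold changes and hold the same motif, again in capitals.
C1qb: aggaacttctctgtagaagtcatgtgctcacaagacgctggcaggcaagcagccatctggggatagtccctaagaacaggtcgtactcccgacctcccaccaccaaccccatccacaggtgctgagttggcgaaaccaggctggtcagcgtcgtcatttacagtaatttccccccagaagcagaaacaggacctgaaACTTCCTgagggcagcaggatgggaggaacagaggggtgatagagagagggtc
C1qc: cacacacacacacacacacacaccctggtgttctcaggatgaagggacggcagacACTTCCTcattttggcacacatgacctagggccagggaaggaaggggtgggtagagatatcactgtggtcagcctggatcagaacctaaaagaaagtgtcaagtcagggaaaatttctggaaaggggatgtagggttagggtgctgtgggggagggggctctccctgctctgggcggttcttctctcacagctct
The motif lay 53 bases before the start of C1qb and 195 bases before that of C1qc. RefSeq windows matched 8 of the 10 genes, with none for Adgre1 and C1qa. AGGAAGT on either strand was found for 6 of these 8 genes (C1qb, C1qc, Lyz1, Lyz2, Ptprc and Retnla), beside 8.80% of 27025 genes with a window. TGANTCA, the AP-1 motif, was found for Cd68 alone, beside 7.82% of genes, and TTGCNNAA, a C/EBP motif, for Cd68, Lyz1 and Retnla, beside 10.8%. The motifs were chosen after the sequences had been seen, the lysozyme copies are not independent, and a match is no evidence of binding.

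**Figure D2:**
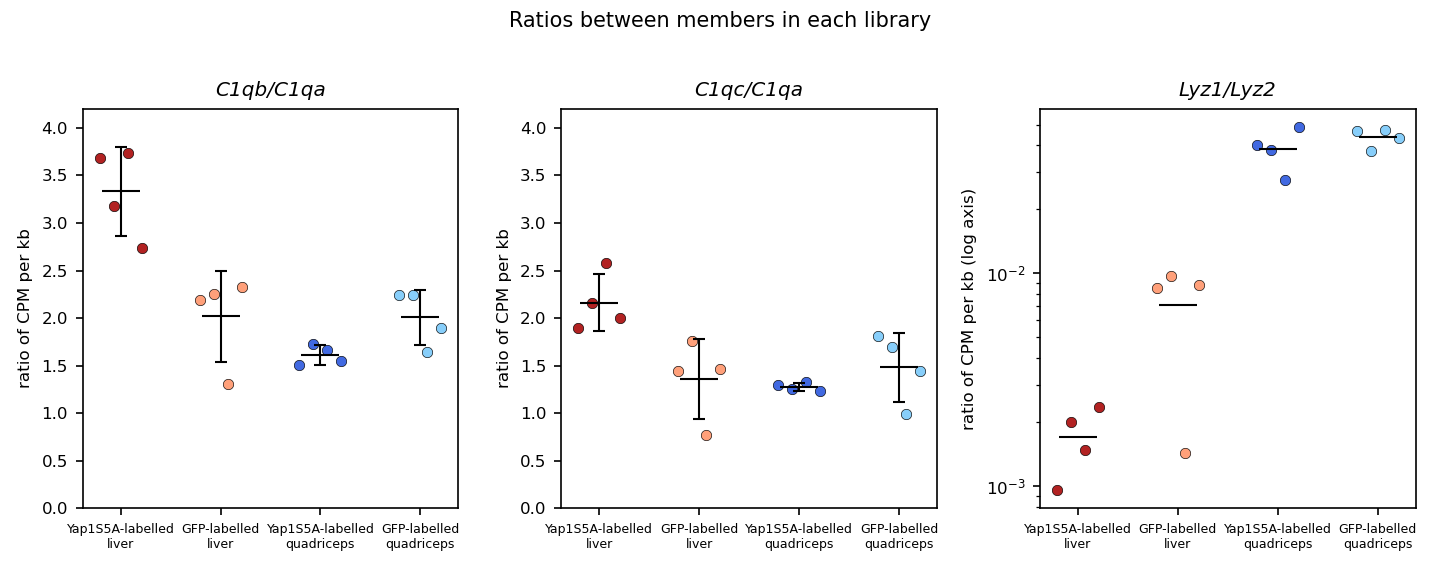
Ratios between members in each library, from CPM per kilobase of exon, with points for libraries, a bar for the mean of 4 and, in the C1q panels, whiskers of 1 SD. C1qb over C1qa lies at 2.74 to 3.73 in Yap1S5A-labelled livers and below 2.4 in all other libraries, and the Lyz1 over Lyz2 ratio, on a log axis, is lower in every liver than in every quadriceps.

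Mpeg1 (chr19:12460779-12465285, plus strand, 2 exon segments) encodes perforin-2, which makes pores in engulfed bacteria, and Cd68 (chr11:69664213-69666170, minus strand, 6 exon segments) encodes a glycoprotein of the phagosome and lysosome. Mpeg1 stood at 421, 416, 385 and 345 CPM in Yap1S5A-labelled livers, against 29.9, 42.8, 21.8 and 26.3 CPM in GFP-labelled livers. In quadriceps it stood at 13.1, 10.3, 9.91 and 11.6 CPM under the Yap1S5A label, against 1.61, 3.95, 2.56 and 3.33 CPM under the GFP label. Of the 10 genes, Mpeg1 had the largest log2 fold change in quadriceps, 1.97 ± 0.22, and in liver it was 3.71 ± 0.21. Cd68 stood at 40.0, 50.7, 54.2 and 52.4 CPM in Yap1S5A-labelled livers, against 2.47, 4.86, 3.42 and 4.76 CPM in GFP-labelled livers. In quadriceps it stood at 6.99, 4.52, 5.22 and 5.37 CPM under the Yap1S5A label, against 1.47, 3.57, 2.93 and 1.99 CPM under the GFP label. Neither gene overlapped between labels, and the log2 fold changes of Cd68 were 3.68 ± 0.20 in liver and 1.16 ± 0.26 in quadriceps.

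The surface proteins were represented by Adgre1 (chr17:57358686-57483529, plus strand, 22 exon segments), an adhesion G protein-coupled receptor that is a standard surface marker of mouse macrophages, and by Ptprc (chr1:138062859-138175305, minus strand, 33 exon segments), the CD45 phosphatase of all leukocytes. Adgre1 stood at 83.5, 81.1, 87.1 and 82.3 CPM in Yap1S5A-labelled livers, against 3.96, 7.03, 2.86 and 6.99 CPM in GFP-labelled livers. In quadriceps it stood at 7.59, 4.52, 6.43 and 6.23 CPM under the Yap1S5A label, against 1.33, 2.04, 2.93 and 3.33 CPM under the GFP label. The Yap1S5A-labelled livers agreed within a coefficient of variation of 3.12%, the smallest of any of the genes and groups. Ptprc stood at 78.4, 71.7, 76.8 and 66.1 CPM in Yap1S5A-labelled livers, against 2.47, 5.85, 5.30 and 4.38 CPM in GFP-labelled livers. In quadriceps it stood at 7.32, 4.45, 4.55 and 2.89 CPM under the Yap1S5A label, against 1.47, 1.85, 1.10 and 2.34 CPM under the GFP label. The groups did not overlap for either gene. The log2 fold changes were 4.02 ± 0.23 for Adgre1 and 4.03 ± 0.21 for Ptprc in liver, and 1.38 ± 0.26 and 1.51 ± 0.30 in the same order in quadriceps.

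Retnla (chr16:48842552-48844461, plus strand, 4 exon segments) encodes a small secreted protein of the resistin family, made by alternatively activated mouse macrophages and by other cells. It had 1, 0, 1 and 4 reads in Yap1S5A-labelled livers and 1, 0, 2 and 0 reads in GFP-labelled livers, a ratio of 1.38 with an exact 95% interval of 0.295 to 8.55. No difference was detectable in liver at this depth, and the gene did not pass the filter on low counts there. In quadriceps Retnla stood at 27.1, 10.9, 17.5 and 17.8 CPM under the Yap1S5A label, against 5.10, 5.87, 6.0 and 9.58 CPM under the GFP label. The log2 fold change there was 1.48 ± 0.29. The lowest Yap1S5A-labelled quadriceps lay just above the highest GFP-labelled one.

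**Figure D3:**
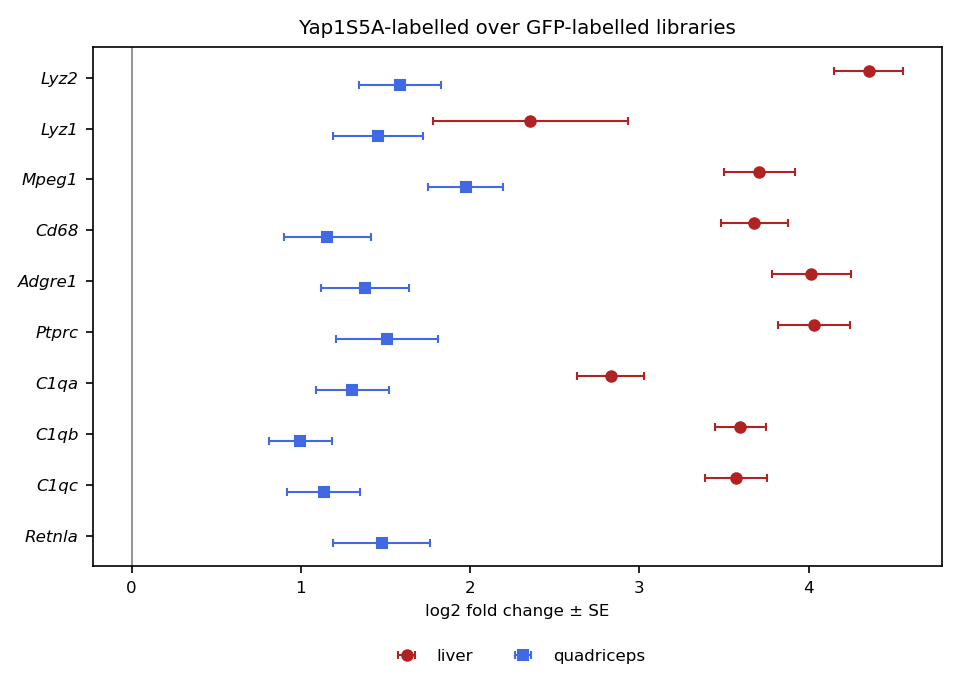
Log2 fold change of Yap1S5A-labelled over GFP-labelled libraries for each gene in liver (circles) and quadriceps (squares). Bars are 1 SE, derived from the edgeR F statistic and shown as a description. Liver values lie between 2.36 (Lyz1) and 4.36 (Lyz2) and quadriceps values between 0.996 (C1qb) and 1.97 (Mpeg1). Lyz1 passed the filter in liver only through the Yap1S5A-labelled livers, and Retnla has no liver value because it was filtered out.

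The median log2 fold change was 3.68 over the 9 genes fitted in liver, beside 0.03 over all genes, and 1.42 over the 10 genes in quadriceps, beside 0.005 over all genes. These medians describe genes picked for standing higher and support nothing about them. The change in liver exceeded that in quadriceps by 2.76 ± 0.30 on the log2 scale for Lyz2, 2.63 ± 0.36 for Adgre1, 2.59 ± 0.24 for C1qb, 2.52 ± 0.33 for Cd68 and 2.51 ± 0.39 for Ptprc. It exceeded it by 2.43 ± 0.29 for C1qc, 1.73 ± 0.30 for Mpeg1 and 1.52 ± 0.31 for C1qa. For Lyz1, with 10 reads in the GFP-labelled livers, the difference was 0.90 ± 0.62, and for Retnla, with 9 liver reads in all, it was -1.05 ± 1.47. These differences are a description, since both vector changes chose the genes.

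Within groups the genes shared their high and low libraries in quadriceps. Replicate 1 of the Yap1S5A-labelled quadriceps was the highest of its group for 10 of 10 genes and replicate 2 the lowest for 8, and replicate 1 of the GFP-labelled quadriceps was the lowest for 9. The summed level of the 10 genes was 305, 170, 234 and 224 CPM in the Yap1S5A-labelled quadriceps and 60.0, 110, 80.8 and 97.5 CPM in the GFP-labelled ones. In livers the sums were 1715, 1818, 1680 and 1624 CPM under the Yap1S5A label, against 102, 155, 115 and 134 CPM under the GFP label. Replicate 1 of the Yap1S5A-labelled quadriceps also had the highest summed hepatocyte markers of that group, 146 CPM, against 64.0, 24.9 and 18.6 CPM in the others. The part of liver RNA in these levels was not tested. Without that library the log2 fold change in quadriceps was 1.43 for Lyz2 and 1.90 for Mpeg1.

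Liver and quadriceps were then compared within each label. The choice of the genes did not name these contrasts, but they share its libraries, and the contrasts of the labels differ by the difference between the vector changes that chose the genes. Levels are shares of each tissue's RNA. In GFP-labelled mice, 6 of the 10 genes were higher in liver and Lyz2 was lower by edgeR at an adjusted p under 0.05, beside 40% of 12865 genes higher and 38.8% lower. Lyz1 and Retnla passed the filter on low counts only through quadriceps, so they are described without a test. Mpeg1 stood furthest above, at 30.2 ± 9.01 CPM in livers and 2.86 ± 1.01 CPM in quadriceps (SD, n = 4 each; log2 fold change 3.41 ± 0.28, edgeR adjusted p = 1.15e-07). Ptprc (1.43 ± 0.32, adjusted p = 0.00103), Adgre1 (1.13 ± 0.35, adjusted p = 0.00914) and the C1q chains were also higher in liver by edgeR. The chains had log2 fold changes of 1.09 ± 0.25 for C1qa, 1.05 ± 0.19 for C1qb and 0.92 ± 0.22 for C1qc, with edgeR adjusted p of 0.0012, 0.000207 and 0.00148.

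Lyz2 was lower in GFP-labelled livers, at 23.6 ± 6.04 CPM, than in GFP-labelled quadriceps, at 39.7 ± 10.6 CPM (log2 fold change -0.73 ± 0.22, edgeR adjusted p = 0.00749), although the ranges overlapped. Lyz1 had 10 reads in the 4 GFP-labelled livers and 116 in the quadriceps. Retnla had 3 reads in the 4 GFP-labelled livers and 382 in the quadriceps, 125 times as high in quadriceps after scaling (exact 95% interval 42.5 to 609). Cd68 did not pass, at 3.88 ± 1.145 CPM in livers and 2.49 ± 0.941 CPM in quadriceps (log2 fold change 0.65 ± 0.32, edgeR adjusted p = 0.0756). With 1 library left out its edgeR adjusted p ran from 0.0308 to 0.194, and it passed without GFP-labelled liver 1 or quadriceps 2. It also passed with the replicate number as a block (edgeR adjusted p = 0.0392). Without overlap between the tissues were 5 genes higher in liver, beside 37.2% of all genes.

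In Yap1S5A-labelled mice 8 of the 10 genes were higher in liver and Lyz1 was lower by edgeR, beside 42.5% of 13491 genes higher and 39.6% lower, and Retnla passed the filter only through quadriceps. No gene overlapped between these tissues, beside 43.1% of all genes wholly higher and 35.2% wholly lower. Mpeg1 averaged 392 ± 34.9 CPM in livers and 11.2 ± 1.43 CPM in quadriceps (log2 fold change 5.00 ± 0.15, edgeR adjusted p = 1.72e-12). Lyz2 averaged 479 ± 51.5 CPM in livers and 118 ± 30.5 CPM in quadriceps (log2 fold change 1.90 ± 0.19, edgeR adjusted p = 2.92e-07). Its sign differed from that under the GFP label, which is a description, since the vector changes chose the gene. The other genes higher in liver ranged from 2.47 ± 0.16 (C1qa) to 3.81 ± 0.21 (Ptprc) on the log2 scale. Lyz1 was lower in liver here too, at 0.924 ± 0.280 CPM against 5.45 ± 1.93 CPM (log2 fold change -2.68 ± 0.31, edgeR adjusted p = 1.57e-06). Retnla had 6 reads in the livers and 1213 in the quadriceps, 258 times as high in quadriceps after scaling (exact 95% interval 118 to 703).

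**Figure D4:**
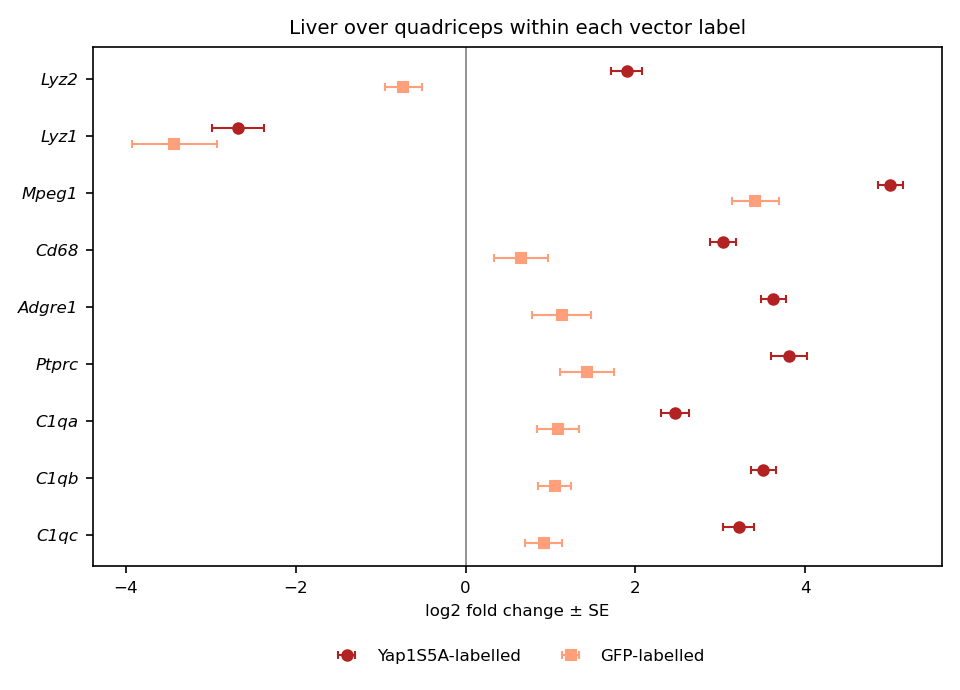
Log2 fold change of liver over quadriceps for 9 genes in Yap1S5A-labelled (circles) and GFP-labelled (squares) libraries, with bars of 1 SE, derived from the edgeR F statistic. Lyz2 lies at 1.90 and -0.73, on opposite sides of 0, Lyz1 lies below 0 under both labels, and Retnla is left out because its liver counts were 6 and 3.

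The order of the genes by level, per kilobase of exon, differed between the tissues. In Yap1S5A-labelled livers Lyz2 led with 453 ± 48.8 CPM per kb, before C1qb with 303 ± 17.8, C1qc with 199 ± 33.1, C1qa with 92.6 ± 15.7 and Mpeg1 with 90.3 ± 8.06 CPM per kb. Of these neighbours only C1qa and Mpeg1 had overlapping ranges. In GFP-labelled livers C1qb came first with 25.3 ± 3.98 CPM per kb, but its range overlapped that of Lyz2 with 22.3 ± 5.71, and Lyz2, C1qc and C1qa each overlapped the next. In quadriceps Lyz2 was clear of the rest, with 112 ± 28.9 CPM per kb under the Yap1S5A label and 37.6 ± 10.04 under the GFP label. Retnla followed Lyz2 under the Yap1S5A label with 30.6 ± 11.1 CPM per kb and came after C1qb under the GFP label with 11.1 ± 3.34, its range overlapping that of its C1q neighbours. Ptprc was the lowest in both quadriceps groups, with 0.847 ± 0.325 and 0.298 ± 0.0939 CPM per kb.

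As a share of the 10 genes' summed CPM per kb, Lyz2 made up 37.2 ± 3.73% in Yap1S5A-labelled livers, 24.5 ± 2.37% in GFP-labelled livers, 51.7 ± 0.977% in Yap1S5A-labelled quadriceps and 46.0 ± 2.71% in GFP-labelled quadriceps. Retnla made up 13.9 ± 1.65% and 13.84 ± 3.27% in the Yap1S5A-labelled and GFP-labelled quadriceps and rested on 9 reads in livers. Mpeg1 held 7.42 ± 0.541% and 7.77 ± 2.07% in the Yap1S5A-labelled and GFP-labelled livers. In quadriceps Mpeg1 held 1.24 ± 0.239% under the Yap1S5A label and 0.792 ± 0.103% under the GFP label.

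**Figure D5:**
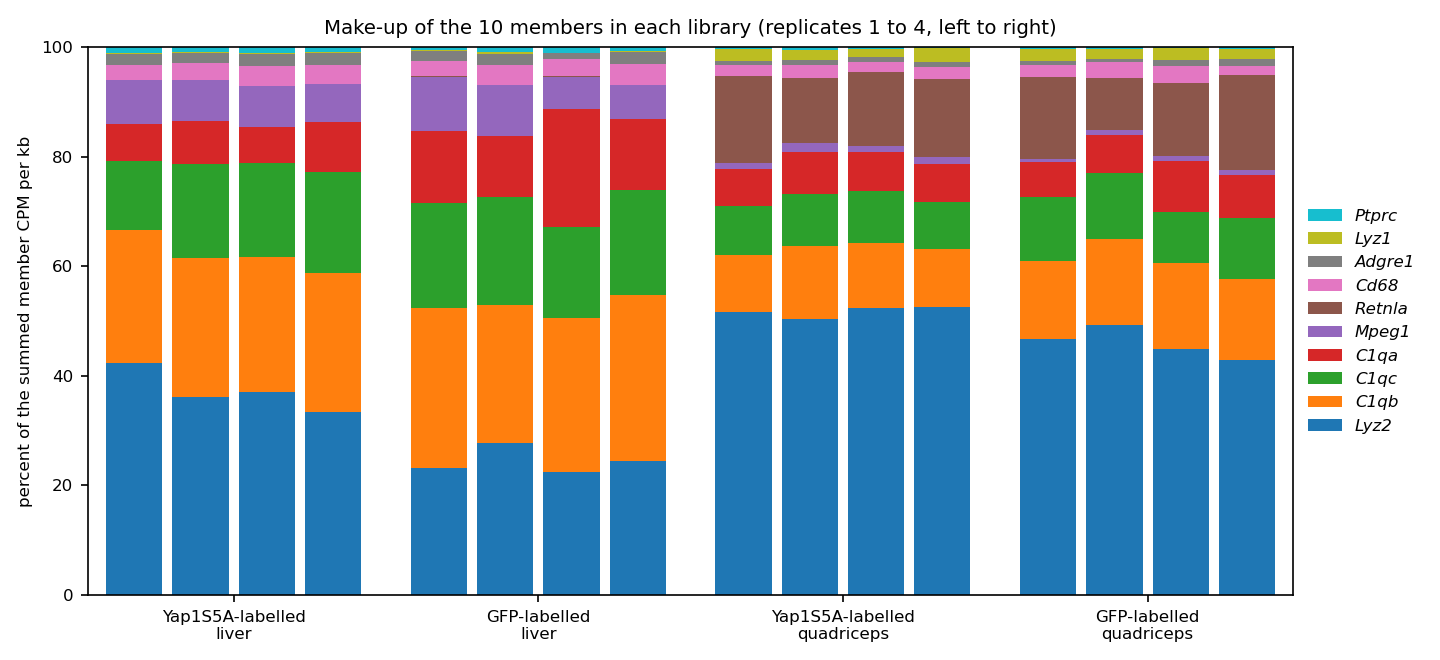
Share of each gene in the summed CPM per kilobase of the 10 genes, in percent, for each library. Lyz2 makes up 51.7% on average in Yap1S5A-labelled quadriceps and 46.0% in GFP-labelled quadriceps, Retnla is visible in quadriceps alone, and the Mpeg1 band is wider in livers.

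Other macrophage and monocyte genes were read from a list beside the 10. In liver 24 of the 25 tested were higher in Yap1S5A-labelled libraries and 1 lower by edgeR, beside 33.3% of 12818 genes higher and 30.3% lower, with a median log2 fold change of 4.06. Csf1r, the receptor for macrophage colony-stimulating factor, averaged 504 ± 78.4 CPM in Yap1S5A-labelled livers, against 22.7 ± 7.95 CPM in GFP-labelled livers (edgeR adjusted p = 3.76e-09). The lysosomal cathepsin gene Ctss averaged 206 ± 52.7 and 10.7 ± 3.09 CPM, and the mannose receptor gene Mrc1 117 ± 12.4 and 21.3 ± 2.16 CPM in the same groups (edgeR adjusted p = 4.72e-09 and 3.07e-09). Gpnmb, Ms4a7, Trem2 and Cx3cr1 stood at 0.0887, 0.171, 0.312 and 0.703 CPM in GFP-labelled livers. They passed the filter on low counts mainly or only through the Yap1S5A-labelled ones and could hardly be called lower. The list was chosen with results of these libraries known and is not independent support.

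In quadriceps 13 of the 21 tested genes of this list were higher in Yap1S5A-labelled libraries and none was lower. Of all 12121 genes 4.21% were higher and 4.82% lower, and the median log2 fold change of the list was 1.23. Ms4a7, Clec4a3 and Clec7a stood at 0.225, 0.443 and 0.229 CPM in GFP-labelled quadriceps. They passed the filter on low counts mainly or only through the Yap1S5A-labelled ones and could hardly be called lower, so nothing is read from their calls. Csf1r averaged 41.0 ± 13.5 CPM in Yap1S5A-labelled quadriceps and 15.6 ± 2.75 CPM in GFP-labelled quadriceps, Ctss 10.1 ± 2.71 and 3.14 ± 0.951 CPM, and Mrc1 19.1 ± 4.49 and 10.1 ± 2.98 CPM (edgeR adjusted p = 0.00486, 0.00157 and 0.022).

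Among Kupffer cell markers, 8 of 11 rose and 3 fell in Yap1S5A-labelled livers by edgeR, beside 33.3% of all genes higher and 30.3% lower, with a median log2 fold change of 2.37. The share that fell was near that of all genes. Spic, at 0.671 CPM in GFP-labelled livers, passed the filter mainly or only through the Yap1S5A-labelled ones and could hardly be called lower. The scavenger receptor family gene Cd5l averaged 196 ± 30.1 CPM in Yap1S5A-labelled livers, against 28.2 ± 5.14 CPM in GFP-labelled livers, and the lectin gene Clec4f 279 ± 13.7 and 57.1 ± 19.01 CPM (edgeR adjusted p = 6.38e-09 and 6.18e-07). The markers that fell were C6, Id3 and Nr1h3. Of 6 hepatocyte markers 4 fell in liver too, and which liver cells carried C6, Id3 and Nr1h3 was not tested. C6, a terminal complement component, averaged 82.8 ± 10.5 and 302 ± 68.4 CPM, and Nr1h3, the nuclear receptor LXR alpha, 91.6 ± 8.19 and 121 ± 21.9 CPM (edgeR adjusted p = 7.25e-07 and 0.0302), and the count of falls dropped to 1 without GFP-labelled liver 1. In quadriceps 4 Kupffer markers passed the filter, of which Nr1h3 alone was called, as higher, beside 4.21% of all genes. It stood at 29.2 ± 0.944 CPM with the Yap1S5A label and 21.1 ± 2.01 CPM with the GFP label (edgeR adjusted p = 0.00802). Clec4f, Cd5l, Marco and Clec1b had 0 reads in the GFP-labelled quadriceps.

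Genes of alternative activation, the list nearest to Retnla, were called higher in 5 of 6 cases in liver (median log2 fold change 2.60). In quadriceps 5 of 6 were called higher (median 0.82), and of all genes 33.3% in liver and 4.21% in quadriceps. Chil3 and Clec10a, at 0.308 and 0.349 CPM in GFP-labelled livers, passed the filter there mainly or only through the Yap1S5A-labelled ones. Both could hardly be called lower, so the liver count and median are a description. Il4ra, the interleukin-4 receptor chain, averaged 71.5 ± 7.5 CPM in Yap1S5A-labelled livers, against 39.3 ± 6.01 CPM in GFP-labelled livers, and the chemokine gene Ccl24 12.7 ± 4.74 and 1.22 ± 0.573 CPM (edgeR adjusted p = 5.86e-05 and 8.17e-07). In quadriceps Il4ra averaged 11.5 ± 1.76 CPM with the Yap1S5A label and 7.03 ± 1.32 CPM with the GFP label, and Ccl24 2.61 ± 1.2 and 0.980 ± 0.223 CPM (edgeR adjusted p = 0.0135 and 0.0274). Arg1, arginase, which hepatocytes use in the urea cycle, fell to 811 ± 90.3 CPM in Yap1S5A-labelled livers, against 2593 ± 553 CPM in GFP-labelled livers (edgeR adjusted p = 1.45e-06). The count in quadriceps was 2 without Yap1S5A-labelled quadriceps 1 and 3 without quadriceps 2 of that label, and 3 with the replicate number as a block.

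Of genes shared by leukocytes and partners of CD45, 12 of 14 rose in liver (median log2 fold change 3.23) and 7 of 11 in quadriceps (median 0.88), beside 33.3% and 4.21% of all genes, and none fell. Cd37, at 0.575 CPM in GFP-labelled quadriceps, passed the filter there mainly or only through the Yap1S5A-labelled ones and could hardly be called lower. Laptm5, a lysosomal membrane protein of blood cells, averaged 138 ± 8.06 CPM in Yap1S5A-labelled livers, against 9.82 ± 2.38 CPM in GFP-labelled livers, and 11.5 ± 2.57 and 5.14 ± 0.939 CPM in quadriceps of the same labels (edgeR adjusted p = 7.54e-10 and 0.00187). Csk, the kinase that opposes CD45, was not called, at 62.9 ± 4.23 and 59.3 ± 2.99 CPM in livers and 8.64 ± 0.994 and 7.09 ± 0.571 CPM in quadriceps (edgeR adjusted p = 0.475 and 0.228). The quadriceps count was 4 without Yap1S5A-labelled quadriceps 1.

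Of myeloid transcription factors and growth factors, 9 of 13 rose and 4 fell in liver, with a median log2 fold change of 2.81. Among those that fell were Cebpa, Cebpb and Il34. Of all genes 33.3% were higher and 30.3% lower, so the share that fell was near that of all genes. Which liver cells carried these transcripts was not tested. Csf1, which encodes macrophage colony-stimulating factor, averaged 193 ± 24.7 CPM in Yap1S5A-labelled livers, against 10.7 ± 2.64 CPM in GFP-labelled livers (edgeR adjusted p = 7.13e-10). Runx1, at 0.428 CPM in GFP-labelled livers, passed the filter mainly or only through the Yap1S5A-labelled ones. In quadriceps Csf1 stood at 11.7 ± 2.80 and 10.6 ± 1.99 CPM (edgeR adjusted p = 0.69). Beside 4.21% of all genes higher and 4.82% lower there, 3 of 12 genes of the list rose and none fell. These were Spi1, which encodes PU.1, at 2.84 ± 0.972 and 1.06 ± 0.549 CPM, Irf8 at 10.4 ± 0.562 and 5.23 ± 0.475 CPM, and the cytokine receptor chain gene Csf2rb at 4.83 ± 1.24 and 1.96 ± 0.362 CPM (edgeR adjusted p = 0.0311, 0.000765 and 0.00443).

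Partners of C1q were called in liver at about the shares of all genes, 33.3% higher and 30.3% lower, or below them. There 3 of 13 rose (C2, C3 and Cd93) and 4 fell, among them C1ra, Serping1 and C1qbp, with a median log2 fold change of -0.03, and in quadriceps Cd93 alone of 11 was called, beside 4.21% of all genes. C3, the central complement protein, averaged 12083 ± 989 CPM in Yap1S5A-labelled livers, against 7047 ± 825 CPM in GFP-labelled livers (edgeR adjusted p = 0.00029). Cd93, a receptor once described as binding C1q and found on endothelium, averaged 42.2 ± 5.95 CPM in Yap1S5A-labelled quadriceps and 25.4 ± 5.75 CPM in GFP-labelled quadriceps (edgeR adjusted p = 0.0104). Of 16 phagosome and lysosome genes, 9 rose and 3 (Lamp2, Ctsl and Ctsz) fell in liver, and Grn alone was called, higher, in quadriceps, again beside 33.3% and 30.3% in liver and 4.21% in quadriceps. The cathepsin gene Ctsb averaged 1132 ± 73.1 and 526 ± 71.3 CPM in the Yap1S5A-labelled and GFP-labelled livers (edgeR adjusted p = 1.23e-05), while Lamp1, at 648 ± 34.99 and 650 ± 103 CPM, was not called (edgeR adjusted p = 0.959).

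Markers of other cells were read beside the 10 genes. The table held 5 of 12 neutrophil, 4 of 15 T and NK cell, 4 of 9 B cell and 6 of 8 dendritic cell markers listed. In liver, where 33.3% of all genes were called higher, edgeR called higher 4 of 4 neutrophil, 5 of 6 dendritic cell, 2 of 4 T and NK cell, 2 of 3 B cell, 7 of 8 endothelial and 4 of 8 fibroblast and stellate markers. Summed neutrophil markers ran from 17.5 to 27.7 CPM in Yap1S5A-labelled livers and from 1.13 to 2.77 CPM in GFP-labelled livers, and summed T and NK cell markers from 4.07 to 5.32 CPM and from 2.46 to 3.25 CPM. Mpo was at 0 in GFP-labelled livers and so passed the filter only through the Yap1S5A-labelled ones. S100a8, Cd7, Klrb1c, Flt3, Cd209a and Siglech, at 0.126 to 0.334 CPM in GFP-labelled livers, passed it mainly or only in the same way. Such genes could hardly be called lower, so nothing is read from the counts of these immune cell markers. Summed endothelial markers ran from 366 to 431 CPM in Yap1S5A-labelled livers and from 188 to 227 CPM in GFP-labelled livers. Of 6 hepatocyte markers 4 fell in liver, beside 30.3% of all genes. In quadriceps no neutrophil, B cell, dendritic cell, mast cell or adipocyte marker was called among the 1, 1, 2, 5 and 10 that passed the filter, and none of the T and NK cell markers passed it. Of all genes in quadriceps 4.21% were called higher and 4.82% lower. Of 8 endothelial markers Tek alone was called higher there. Of 8 fibroblast markers 4 (Col1a1, Col3a1, Lum and Dpt) fell, and of 6 muscle fibre markers Myh4 and Mylpf fell. Of 4 hepatocyte markers Ttr was called higher in quadriceps, at 2.66 ± 2.46 CPM under the Yap1S5A label and 0.277 ± 0.207 CPM under the GFP label. Ttr passed the filter mainly or only through the Yap1S5A-labelled quadriceps and could hardly be called lower. The part of these cells in the levels of the 10 genes was not tested.

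The genes whose levels over the 16 libraries lay nearest to the mean profile of the 10 were found by the root mean square difference of centred log2 CPM, among 10202 other genes with a mean of at least 5 CPM. They were Irf8 (0.286), Rassf4 (0.337), Pirb (0.382), Cd74 (0.386) and Ccl6 (0.405). The 10 genes themselves lay between 0.467 (Lyz2) and 3.64 (Retnla) from their own mean, so the mean profile is that of no single one of them. Cd74, the invariant chain of antigen presentation, averaged 309.6 ± 83.7 CPM in Yap1S5A-labelled livers, 44.5 ± 9.39 CPM in GFP-labelled livers, 68.8 ± 3.01 CPM in Yap1S5A-labelled quadriceps and 38.7 ± 6.45 CPM in GFP-labelled quadriceps.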

How the data were processed

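Total RNA-seq of bulk liver and quadriceps gave 16 libraries, 4 per group. An Ion Total RNA-Seq kit was used, per the labels' protocols. Per the submitters' processing notes, the tools were STAR 2.4.2a, FastQC 0.11.5 and featureCounts (Subread 1.5.0), on build mm10. The sources used here give neither counting parameters nor the strand setting, so overlapping and antisense neighbours could not be told apart. The authors deposited raw read counts per gene, as whole numbers for 13701 genes with exon coordinates. They also deposited a scaled signal per gene, called CPM per the file headers, whose columns sum to 732689 to 1152078, and it served only to recover their effective library sizes as an alternative scaling.

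Groups follow the sample titles, and columns were joined to samples by barcode. Counts were fitted with edgeR 4.0.16 in R 4.3.3 (filterByExpr, TMM, robust glmQLFit and glmQLFTest), with Benjamini-Hochberg adjustment over all genes tested and a threshold of 0.05, in each tissue, in each vector label and, for differences between tissues, over 16 libraries. The procedure was tested on simulated data. Of the 10 genes, 9 passed the filter in the liver contrast and 10 in the others. A gene at the floor in a group could pass the filter through the other group alone, and could then hardly be called the other way. Ratios added 0.5 to each count, divided by exonic length, and were compared by two-sided exact permutation tests over 70 arrangements. Replicate pairs had a chi-square of 12.2 to 63.7 per degree of freedom, so none was merged. Intervals and floors cover counting error only, since reads carry no molecular identifiers. Tables were handled in pandas 2.3.3, scipy 1.17.1 and numpy 2.4.6 under Python 3.11.15. Promoter sequences are RefSeq's in GRCm38.p6. Alternatives covered scaling, the filter, DESeq2, a gene length trend, the replicate number as a block and each library left out. All 10 genes are named, from each of 18 lists (206 entries, 201 genes) mainly up to 4 genes of highest mean level plus the few called against the majority, and other names were chosen after their values were seen. Some genes that this rule would name are not reported here. The genes and lists were chosen with earlier results of these data known.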

Additional observations from a re-analysis of the deposited data

Results flagged for a closer look

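Among 40 sets of 4 libraries (10 genes in 4 groups), 2 had a library far from the others by Dixon's ratio of its gap to the range above its 95% critical value for 4 samples. Chance flags about 1 in 20 such sets. C1qa in GFP-labelled quadriceps had a ratio of 0.987, with replicate 1 at 3.91 CPM and the others at 7.68 to 7.73 CPM. C1qb in Yap1S5A-labelled livers had a ratio of 0.872, with replicate 2 at 350.3 CPM and the others at 310.4 to 315 CPM.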

How the results depend on the processing

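Over 93 results, 1455 alternative values were computed, of which 1393 kept their direction and side of the threshold or their size. No fitted vector or tissue change of the 10 genes turned its direction, which leaves out Retnla in liver and in the difference between tissues. The numbers of genes called in quadriceps (510 higher and 584 lower) ran from 277 to 464 higher and from 325 to 560 lower with 1 library left out, lowest without GFP-labelled quadriceps 4, where fewer samples enter the fit. They were below the main counts by over 1.5 times also without Yap1S5A-labelled quadriceps 3 (323 higher, 382 lower) and, for lower genes, without Yap1S5A-labelled quadriceps 1 (355). With 1 library left out, the log2 difference in ratio between liver and quadriceps ran from 0.98 to 1.13 (C1qb/C1qa) and from 0.66 to 0.81 (C1qc/C1qa) under the Yap1S5A label, and from -4.74 to -4.31 and from -3.20 to -2.27 for Lyz1/Lyz2 under the Yap1S5A and GFP labels. Under the GFP label, C1qb/C1qa ran from -0.11 to 0.18 and C1qc/C1qa from -0.33 to 0.10, and the sign turned without GFP-labelled liver 3 (0.18 and 0.10) and, for C1qb/C1qa, without GFP-labelled quadriceps 1 or 2 (0.041 each). Removing a trend with gene length raised the log2 fold changes of liver Lyz2 to 4.96, Cd68 to 4.18, C1qa to 3.43, C1qb to 4.198 and C1qc to 4.17, and the cause was not tested. It gave 2592 higher and 4225 lower genes for the difference between tissues in vector change, against 3481 and 3075. Upper-quartile scaling moved liver over quadriceps by -0.20 under the GFP label, and the authors' library sizes by 0.12 under the Yap1S5A label. Same-numbered libraries correlated by -0.0362 to 0.125 and by -0.0199 to 0.0915 between tissues of the Yap1S5A and GFP labels, with 3 and 2 of 4 libraries correlating best with their own number, and although sample IDs share numbers between tissues, no label says that a number marks 1 mouse, so they were not taken as pairs. The replicate block gave 355 higher and 402 lower genes in quadriceps, and Cd68 then passed in GFP-labelled tissues (0.67 on the log2 scale, edgeR adjusted p = 0.0392). Depth limits Retnla and Lyz1 in liver.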

Other observations

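Liver and quadriceps also differed in macrophage genes outside the 10. In GFP-labelled mice 12 of 21 other macrophage and monocyte genes were higher in liver by edgeR and 4 were lower (Itgam, Lgals3, Emilin2 and Gpnmb), beside 40% and 38.8% of all genes. Of those higher, Fcgr4, Clec7a, Aif1, Fcgr1 and Msr1, at 0.0502 to 0.628 CPM in quadriceps, passed the filter on low counts mainly or only through liver. Such genes could hardly be called the other way, so the counts are a description. Gpnmb, a lysosomal glycoprotein gene, averaged 0.0887 ± 0.0690 CPM in livers and 4.53 ± 0.869 CPM in quadriceps of GFP-labelled mice (SD, n = 4 each), and it passed the filter on low counts only through quadriceps, so no p is given. In Yap1S5A-labelled mice 24 of 25 were higher in liver, beside 42.5% of all genes. Of these, Fcgr4, Aif1 and Cx3cr1, at 0.319 to 0.498 CPM in quadriceps, passed the filter mainly or only through liver. Gpnmb alone was lower, at 2.79 ± 1.32 CPM in livers, against 5.54 ± 1.60 CPM in quadriceps (edgeR adjusted p = 0.00869).

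Of the alternative activation genes, 6 were tested between tissues under the GFP label. By edgeR 3 of them (Mrc1, Arg1 and Il4ra) were higher in liver and 2 lower, beside 40% and 38.8% of all genes. Under the Yap1S5A label 5 of 7 were higher in liver and 2 lower, beside 42.5% and 39.6%. Some passed the filter on low counts mainly or only through a single tissue, so these counts are a description. The 2 that stood lower in liver under both labels were Clec10a and Mgl2, lectin genes of macrophages and dendritic cells. For Mgl2, and for Clec10a under the GFP label, the filter was passed mainly or only through quadriceps, so no p is given. Mgl2 averaged 0.460 ± 0.276 CPM in Yap1S5A-labelled livers, against 5.13 ± 0.675 CPM in Yap1S5A-labelled quadriceps. Clec10a averaged 2.36 ± 0.696 CPM in Yap1S5A-labelled livers, against 7.68 ± 1.96 CPM in Yap1S5A-labelled quadriceps (edgeR adjusted p = 7.33e-06), and 0.349 ± 0.162 CPM in GFP-labelled livers and 2.81 ± 0.7305 CPM in GFP-labelled quadriceps. Retn, the 1 of 7 lysozyme and resistin relatives looked for that the table held, had no reads in Yap1S5A-labelled livers, against 5.31 ± 3.95 CPM in Yap1S5A-labelled quadriceps, and at 3.77 ± 2.10 CPM in GFP-labelled quadriceps it was not called between labels (edgeR adjusted p = 0.705). Retn is an adipocyte gene in mice, and the adipocyte genes Cfd and Adipoq averaged 132 ± 100.4 and 18.2 ± 14.6 CPM in Yap1S5A-labelled quadriceps, against 58.8 ± 32.02 and 9.92 ± 5.12 CPM in GFP-labelled quadriceps, neither called (edgeR adjusted p = 0.439 and 0.579).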
